A study of Saccharomyces cerevisiae with 12 samples.

Results

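Poly(A) mRNA levels were compared between budding yeast carrying 4 copies of DBP1 (2xDbp1) and yeast of the Dbp1 genotype. In both genotypes DBP1 stood under DED1 regulatory regions. The comparison used 4 of the 12 libraries of the series, 2 of each genotype, and covered the 5198 of 6159 listed genes whose mean mRNA level was at least 5 RPKM. RPKM is reads per kilobase of gene, scaled to a fixed library depth. All cells were of the SK1 strain, cultured at 30 °C in aerated YEPD, collected when the optical density was 0.6, and exposed just before to 100 µM cycloheximide for 1 minute. The third genotype, Ded1, had DED1 under its own regulatory regions, and its 2 mRNA libraries entered the estimate of the spread between replicates. Footprint libraries of the same 3 genotypes made up the other 6. The stated aim of the extra copies was to match helicase levels and so ask how specific each helicase is.

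Ded1 and Dbp1 are paralogous DEAD-box RNA helicases, enzymes that use ATP to unwind or remodel RNA. Ded1 helps the small ribosomal subunit to attach to mRNAs and to scan structured leaders, and it is abundant and needed for growth in rich medium. Dbp1 can take over part of this work when it is made in sufficient amounts.

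Depth and replicate spread set what could be seen. The mRNA libraries held 6.0 to 8.5 M reads, inferred from the steps between the deposited values. A gene of 1 kb at 5 RPKM then has 30.0 to 42.5 reads. The median absolute log2 difference between replicates was 0.11 in 2xDbp1 and 0.14 in Dbp1, and 29 genes in 2xDbp1 but 68 in Dbp1 differed by at least 2-fold between replicates. No sources used here say whether the libraries of a genotype came from separate cultures or from more than 1 clone, so the p-values measure only the spread between these samples.

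DBP1 itself was 1.51 times as high in 2xDbp1 as in Dbp1. Its level was 156 and 153 RPKM in the 2xDbp1 libraries and 100.4 and 104 RPKM in the Dbp1 libraries. Both 2xDbp1 values lay above both Dbp1 values, and the Ded1 libraries held 5.12 and 4.26 RPKM. The log2 change, taken throughout as the 2xDbp1 mean minus the Dbp1 mean of log2(RPKM + 1), was 0.59 with a standard error (SE) of 0.11 and a 95% interval of 0.34 to 0.83. It did not pass limma's test across all genes, with an adjusted p of 0.303.

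DED1 was low in both genotypes. It stood at 1.81 and 1.87 RPKM in 2xDbp1 and at 2.74 and 2.81 RPKM in Dbp1, against 63.0 and 61.5 RPKM in the Ded1 libraries. It entered the test only through the Ded1 libraries, so its log2 change of -0.41 is given as a description. The targeted genes thus followed the genotype labels in all 6 mRNA libraries. Genes beside DBP1, including MRP51 at 0.02, IDI1 at -0.07 and HOS3 at -0.17, had log2 changes that did not pass. Of the genes next to DED1, GEP3 was at -0.27, with both 2xDbp1 libraries lower, and HIS3 was at 0.13, and neither passed (adjusted p 0.610 and 0.754).

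TRP1 was the single gene that passed the test, and it fell in 2xDbp1. TRP1 encodes phosphoribosylanthranilate isomerase of tryptophan synthesis and is widely used as a selectable marker. Its level was 5.70 and 6.53 RPKM in 2xDbp1, against 79.7 and 71.5 RPKM in Dbp1 and 70.4 and 83.4 RPKM in Ded1. The log2 change was -3.43 with an SE of 0.13 and a limma adjusted p of 6.8e-05, and the Dbp1 mean was 12.4 times the 2xDbp1 mean. Both 2xDbp1 libraries stood far below all 4 of the others, with about 23 and 28 reads against 294 and 345 in Dbp1. In bulk cultures such as these, fewer cells with a transcript and less of it per cell cannot be told apart. TRP1 footprints were few in every genotype, at 1.13 and 0.77 RPKM in 2xDbp1 and 1.67 and 1.05 RPKM in Dbp1, too low to enter the footprint test.

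None of the tested genes around TRP1 passed. The log2 changes of RAD57, MAF1 and SOK1 were -0.13, -0.16 and -0.08, and GAL3, an activator of galactose genes, was at 0.32 (adjusted p 0.786). SNQ2, 3 genes away, was at -0.26 (adjusted p 0.610). In RAD57, MAF1 and SNQ2 both 2xDbp1 libraries were lower than both Dbp1 libraries, as in 21.3% of all genes. One further identifier was chosen after its values were seen. YDR008C, next to TRP1 in the systematic numbering and carrying the suffix of the other strand, was listed at 15.7 and 16.7 RPKM in 2xDbp1 against 2.29 and 0.44 RPKM in Dbp1. In Ded1 it was at 0 and 0.81 RPKM. Both 2xDbp1 libraries were thus high where TRP1 was low. It passed the filter on low levels only through the 2xDbp1 libraries, so its log2 change of 2.99 is given as a description. Whether the counting used strand is not given in the sources used here, so its reads cannot be told apart from reads of the opposite strand.

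**Figure D1:**
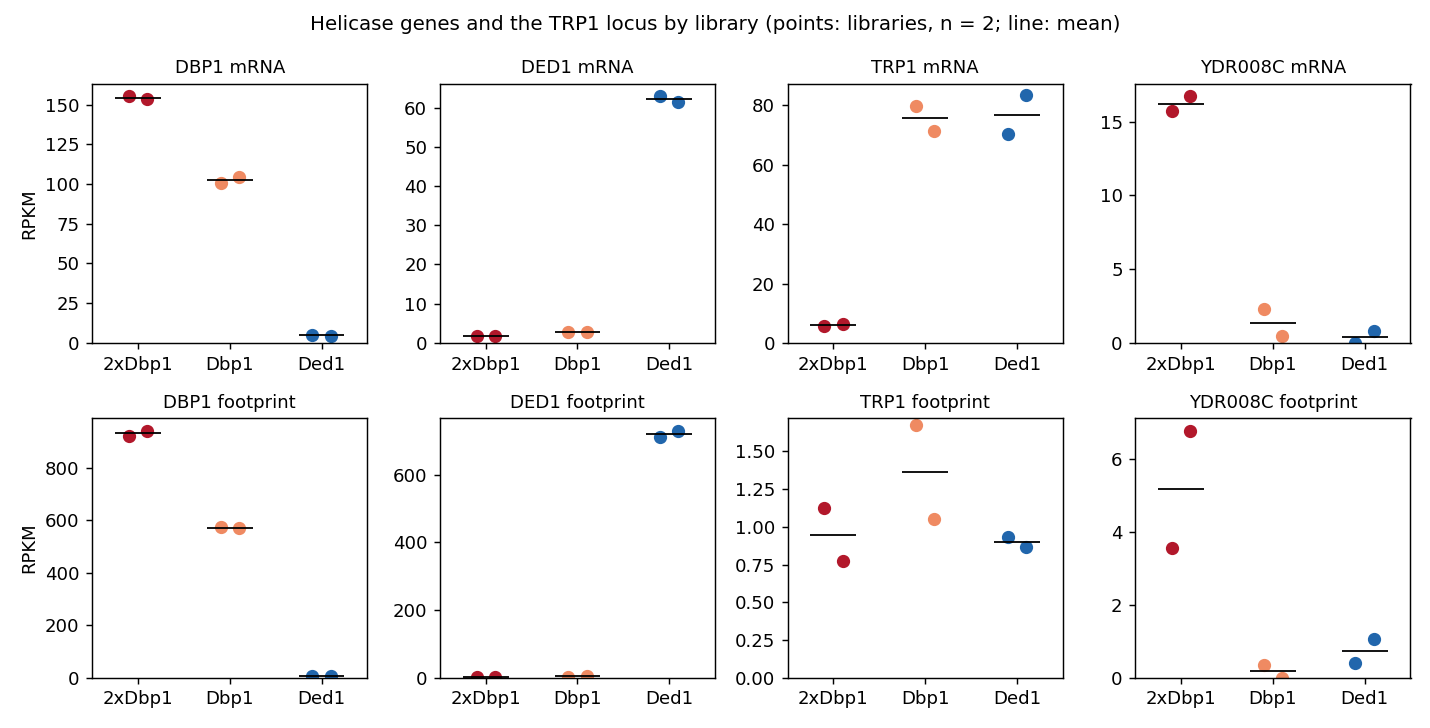
mRNA (top) and footprint (bottom) levels in RPKM of DBP1, DED1, TRP1 and YDR008C by genotype, with 1 point per library, a line at the mean of the 2 libraries and a separate linear axis per panel. DBP1 mRNA lies at 156 and 153 RPKM in 2xDbp1 and at 100.4 and 104 RPKM in Dbp1, and TRP1 mRNA lies at 5.70 and 6.53 RPKM in 2xDbp1 while the other 4 libraries lie between 70.4 and 83.4 RPKM.

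Across the transcriptome the differences were small. The median log2 change over the 5198 genes was -0.01, the median absolute change was 0.11, and 90% of genes lay between -0.35 and 0.25. Only TRP1 was called, 0.0192% of the genes tested, and 0 were called higher. At an unadjusted p under 0.05 there were 404 genes (7.77%), 176 higher (3.39%) and 228 lower (4.39%). In 2054 genes (39.5%) the libraries of the genotypes did not overlap, with 945 higher in 2xDbp1 (18.2%) and 1109 lower (21.3%). These shares are the background for every list described here.

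Of changes of at least 2-fold, 9 were toward 2xDbp1 and 18 toward Dbp1, and 8 and 17 of them had libraries that did not overlap. At a log2 change of at least 0.5 in size the counts were 52 higher and 124 lower. Counts of genes below 0 and above 0 were nearer to each other, at 53% and 47%.

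**Figure D2:**
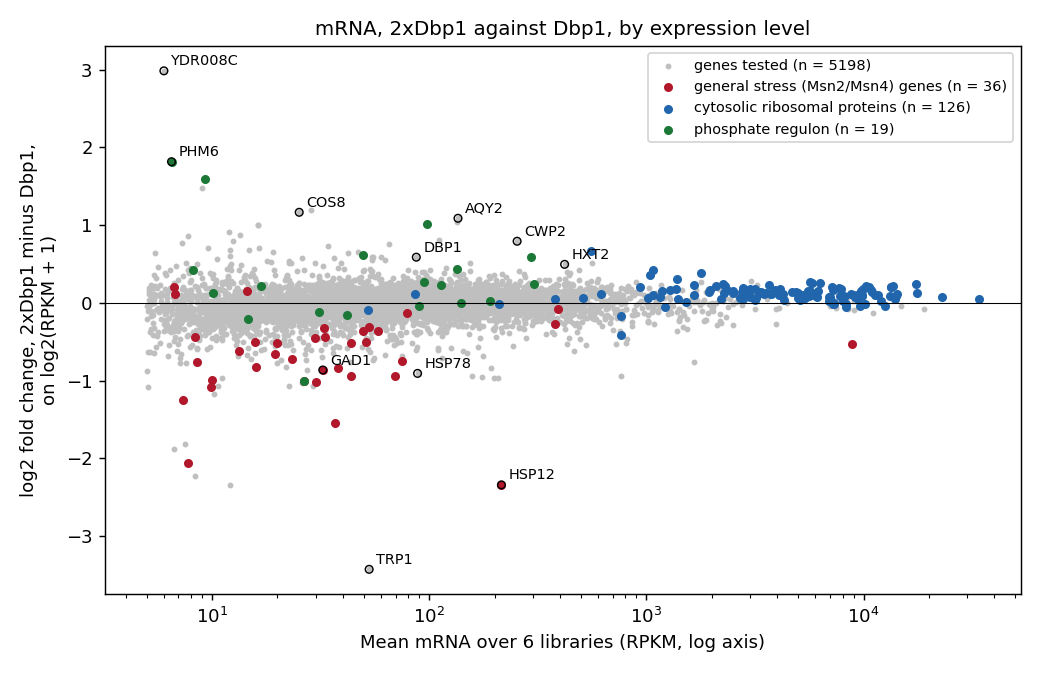
Log2 change of mRNA, 2xDbp1 minus Dbp1, against the mean mRNA level over the 6 libraries (RPKM, log axis) for the 5198 genes tested, 1 point per gene, with the general stress, ribosomal protein and phosphate genes in colour. TRP1, at -3.43, is the gene that passed the test, and 90% of genes lie between -0.35 and 0.25.

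Genes of the general stress response were lower in 2xDbp1 in most cases, and none passed the test. These genes are switched on by the transcription factors Msn2 and Msn4 when cells are starved or stressed. Of 40 listed genes, 36 passed the filter on low levels, and 33 of these had a log2 change below 0 (53% of all genes), and the median was -0.57 against -0.01 over all genes. In 28 of the 36 the 2xDbp1 libraries both lay below both Dbp1 libraries (background 21.3%), and 25 had an unadjusted p under 0.05 on the lower side (background 4.39%). With every library kept, no member was higher without overlap. With 1 library left out, the number lower without overlap was 30 without either 2xDbp1 library (backgrounds 35.8% and 35.1%), 28 without Dbp1 replicate 1 (35.4%) and 35 without Dbp1 replicate 2 (41.9%). Members higher without overlap then numbered 4 without Dbp1 replicate 1, 1 without 2xDbp1 replicate 2 and 0 in the other settings. The share of all genes higher in these settings was not taken.

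The mean log2 level of the list was 4.90 and 5.03 in the 2xDbp1 libraries, 5.90 and 5.38 in Dbp1 and 4.27 and 4.46 in Ded1. Every 2xDbp1 library was below every Dbp1 library and above every Ded1 library. The size rested in part on Dbp1 replicate 1, the highest of the 6. The median was -0.41 without it and -0.78 without Dbp1 replicate 2. The Dbp1 libraries are shared by every comparison with that genotype, so the Ded1 levels are given side by side only.

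Among all genes below 0, NNR2 and GAD1 had the lowest p-values after TRP1. NNR2, which is not on the stress list and encodes an enzyme that repairs damaged NADH and NADPH, was at 101 and 103 RPKM in 2xDbp1 and at 176 and 158 RPKM in Dbp1. Its log2 change was -0.71 with an SE of 0.09 (adjusted p 0.205). GAD1, a stress list member that encodes glutamate decarboxylase, was at 26.3 and 27.7 RPKM against 51.1 and 48.9 RPKM, a log2 change of -0.86 with an SE of 0.12 (adjusted p 0.205). In both genes the replicates lay close together and the genotypes apart, and the Ded1 libraries were lower still, at 73.0 and 72.6 RPKM for NNR2 and 18.2 and 21.9 RPKM for GAD1.

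The largest differences in the stress list came with wide spread between replicates. HSP12, a small membrane-associated stress protein, was at 104 and 84.9 RPKM in 2xDbp1 and at 674 and 344 RPKM in Dbp1, and the 2xDbp1 libraries were both far lower. The log2 change was -2.34 with an SE of 0.55, so the 95% interval ran from -3.64 to -1.04 (adjusted p 0.392). DDR2, a small stress-induced protein, was at 1.2 and 4.6 RPKM in 2xDbp1 and at 34.4 and 5.1 RPKM in Dbp1, where 1 library carried nearly the whole difference. Other low members were SIP18 at -1.55, RTN2, a reticulon of the endoplasmic reticulum, at -1.02, and CTT1, the cytosolic catalase, at -0.76. HSP12, DDR2, SIP18 and RTN2 were chosen after their values were seen.

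MSC1 and PHM8, also on the stress list, had less spread. MSC1, a gene first found through an effect on meiotic recombination, was at 31.7 and 39.3 RPKM in 2xDbp1 and at 80.8 and 58.3 RPKM in Dbp1 (log2 change -0.94, SE 0.17, adjusted p 0.303). PHM8, a nucleotide phosphatase, was at 20.2 and 21.7 RPKM against 40.7 and 45.4 RPKM, a log2 change of -1.005. YNR014W, an uncharacterised gene on none of the lists, was at 7.90 and 7.42 RPKM against 16.1 and 15.9 RPKM, a log2 change of -0.97 (adjusted p 0.291). For all 3 the Dbp1 libraries were both higher.

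Storage carbohydrate genes lay the same way. Trehalose and glycogen are reserves that yeast makes as growth slows, and many of their genes also answer to Msn2 and Msn4. Of 17 genes tested, 15 had a log2 change below 0, the median was -0.28, and 11 were lower without overlap (background 21.3%). PGM2, phosphoglucomutase, was at 19.5 and 17.3 RPKM in 2xDbp1 and at 31.4 and 27.6 RPKM in Dbp1, a log2 change of -0.65 (SE 0.13, adjusted p 0.303). NTH1, the neutral trehalase, was at 29.4 and 32.4 RPKM against 43.1 and 44.3 RPKM, a log2 change of -0.49. The synthesis genes TPS1 and GSY2 and the breakdown genes NTH1 and GPH1 were all lower, with GPH1, glycogen phosphorylase, at -1.08, and no member passed.

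Hsf1-dependent chaperones, which fold or rescue proteins, had 23 of 26 members below 0 and a median of -0.27. In 13 of the 26 the 2xDbp1 libraries were lower without overlap (background 21.3%). These included HSP78, the mitochondrial disaggregase, at 61.0 and 73.8 RPKM in 2xDbp1 against 115 and 139 RPKM in Dbp1. Its log2 change was -0.91 with an SE of 0.15 (adjusted p 0.291). HSP42, a small heat shock protein, was at 23.0 and 21.3 RPKM against 34.7 and 49.1 RPKM, a log2 change of -0.87. For both genes the Dbp1 libraries were the higher ones. HSP82 at -0.62 and HSP104 at -0.51 lay the same way. For this list Dbp1 replicate 2 was the higher library, and the median was -0.08 without it and -0.42 without Dbp1 replicate 1.

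**Figure D3:**
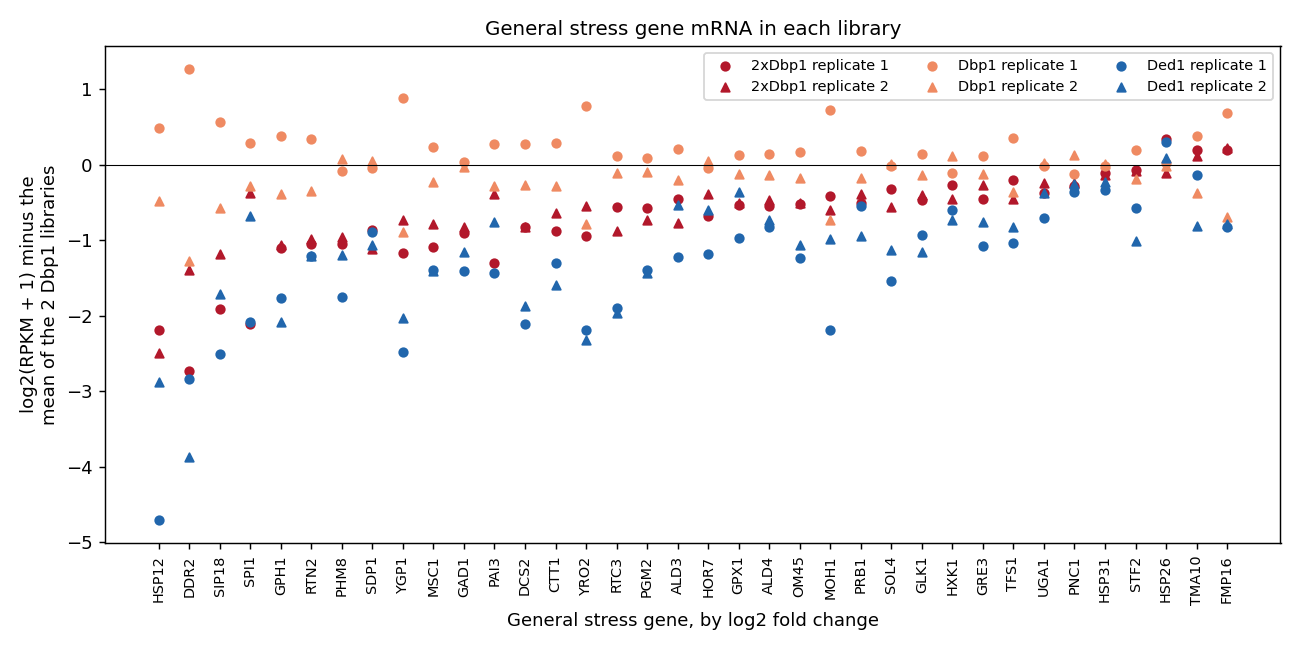
log2(RPKM + 1) of the 36 general stress genes in each mRNA library, minus the mean of the 2 Dbp1 libraries, with genes ordered by log2 change and 1 symbol per library (circles, replicate 1; triangles, replicate 2). In 28 of the 36 genes both 2xDbp1 symbols lie below both Dbp1 symbols, and the Dbp1 symbols of HSP12 and DDR2 lie far apart.

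Amino acid synthesis genes controlled by Gcn4, the activator that answers amino acid shortage, were lower in 43 of 48 cases. Their median log2 change was -0.28, and 31 were lower without overlap (background 21.3%). ARO1, which carries several activities of the shikimate route to aromatic amino acids, was at 58.9 and 62.4 RPKM in 2xDbp1 and at 93.3 and 81.4 RPKM in Dbp1. Its log2 change was -0.52 with an SE of 0.10 (adjusted p 0.303). Both 2xDbp1 libraries were lower. The median depended on the 2xDbp1 libraries, at -0.10 without replicate 1 and -0.44 without replicate 2.

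LEU2, an enzyme of leucine synthesis and another common marker gene, was at 35.4 and 46.0 RPKM in 2xDbp1 and at 63.2 and 69.9 RPKM in Dbp1 (log2 change -0.71, adjusted p 0.460). Among the other marker genes LYS5, chosen after its values were seen and needed for lysine synthesis, was at 16.9 and 17.0 RPKM against 30.5 and 31.2 RPKM (log2 change -0.83, adjusted p 0.379). URA3, of uracil synthesis, was at 63.7 and 60.01 RPKM against 38.9 and 55.6 RPKM, a log2 change of 0.40. Of the 12 marker genes tested, 6 were lower and 1 was higher without overlap (backgrounds 21.3% and 18.2%), and only TRP1 passed.

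Genes of respiration were lower on balance, by an amount that 1 library decided. Genes of the tricarboxylic acid cycle had a median of -0.20 with 0 of 22 above 0 (47% of all genes). The respiratory chain and ATP synthase had -0.13 with 1 of 39 above 0, and gluconeogenesis and fatty acid oxidation -0.40 with 4 of 12. Lower without overlap were 7 of 22, 11 of 39 and 2 of 12 genes (background 21.3%), the last under that share. Higher without overlap were 0, 0 and 1 (background 18.2%). Mean log2 levels of these lists were 7.89, 9.91 and 4.85 in Dbp1 replicate 1 and 7.38, 9.56 and 4.17 in Dbp1 replicate 2. Without it the medians were 0.04, 0.03 and 0.09, and without Dbp1 replicate 2 they were -0.48, -0.31 and -0.78. COX5B, a subunit of cytochrome c oxidase used when oxygen is low, was at 59.3 and 57.9 RPKM in 2xDbp1 and at 93.9 and 78.2 RPKM in Dbp1, and its libraries did not overlap (log2 change -0.54, adjusted p 0.408). FAA1, a long-chain acyl-CoA synthetase, was at 118 and 171 RPKM against 322 and 238 RPKM, a log2 change of -0.96.

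On the higher side, AQY2, CWP1 and CWP2 were among the genes with the lowest p-values. AQY2, a water channel, was at 181 and 130 RPKM in 2xDbp1 and at 77.3 and 66.4 RPKM in Dbp1, and the Ded1 libraries were at 209 and 150 RPKM. Its log2 change was 1.09 with an SE of 0.20 (adjusted p 0.303). AQY2 overlaps YLL053C in the annotation, so their reads may be shared. CWP1 and CWP2, mannoproteins of the cell wall, had log2 changes of 0.80 and 0.79.

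CWP1 was at 136 and 121 RPKM in 2xDbp1 and at 85.1 and 62.8 RPKM in Dbp1, while CWP2 was at 305 and 249 RPKM against 161 and 157 RPKM. The 2xDbp1 values of both genes lay near the Ded1 values, which were 141 and 118 RPKM for CWP1 and 378 and 275 RPKM for CWP2. The cell wall list as a whole did not lean to either side, with 14 of 29 members above 0 and a median of -0.004.

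HXT4, a glucose transporter, was at 55.7 and 60.2 RPKM in 2xDbp1 and at 32.7 and 40.4 RPKM in Dbp1 (log2 change 0.66, SE 0.12, adjusted p 0.303). HXT2, another glucose transporter that is induced when glucose is low, was at 461 and 435 RPKM against 300.1 and 336 RPKM, a log2 change of 0.50. Both genes were higher in both 2xDbp1 libraries. The 11 hexose transporters and glucose sensors tested were split, with 5 above 0.

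COS8, a member of a subtelomeric family of membrane proteins, was at 33.1 and 39.98 RPKM in 2xDbp1 and at 19.3 and 12.7 RPKM in Dbp1 (log2 change 1.17, SE 0.19, adjusted p 0.291). COS3 and COS7 had identical values in every library, 20.8 and 20.9 RPKM in 2xDbp1 against 13.2 and 7.4 RPKM in Dbp1, so they are 1 measurement. Members of the family are near copies whose reads can be split or shared between them, and their values are uncertain for that reason. The Dbp1 replicates differed, and without Dbp1 replicate 1 these 3 genes passed, at an adjusted p of 0.0423.

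Genes of the phosphate regulon, which Pho4 turns on when phosphate is short, had 13 of 19 members above 0 and a median of 0.23. In 10 of the 19 the 2xDbp1 libraries were higher without overlap (background 18.2%), and in 3 they were lower (background 21.3%). The 3 lower ones were PHM8, which had the lowest p of the list and the log2 change of -1.005 given with the stress genes, and the regulators PHO2 and PHO4, at -0.20 and -0.16. PHM6, of unknown function, was at 11.96 and 5.62 RPKM in 2xDbp1 and at 1.31 and 1.999 RPKM in Dbp1, a log2 change of 1.82 with an SE of 0.35 (adjusted p 0.303). That change rested on about 20 and 10 reads in 2xDbp1 against 2 and 4 in Dbp1, where the gene lay below 5 RPKM. VTC1, of the complex that makes polyphosphate, was at 403 and 334 RPKM against 283 and 210 RPKM, a log2 change of 0.59. PHO84, the high-affinity phosphate transporter, was at 141 and 123 RPKM in 2xDbp1 and at 116 and 36.0 RPKM in Dbp1, where replicate 2 was the low library. The median of the list was 0.05 without Dbp1 replicate 2 and 0.41 without Dbp1 replicate 1.

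Metal genes also lay above 0 in most cases (47% of all genes). In the zinc regulon 9 of 11 genes were above 0, with a median of 0.19 that was 0.078 without Dbp1 replicate 2 and 0.10 without 2xDbp1 replicate 2. Without overlap, 6 of the 11 were higher (background 18.2%) and 1 was lower (background 21.3%). IZH4, a membrane protein of zinc homeostasis, was at 18.2 and 11.9 RPKM in 2xDbp1 against 9.67 and 5.95 RPKM in Dbp1. In the iron regulon 17 of 23 were above 0, with a median of 0.11 that was 0.27 without 2xDbp1 replicate 1 and -0.03 without 2xDbp1 replicate 2. Only 4 of the 23 were higher without overlap, near the background of 18.2%, and 2 were lower (background 21.3%). FTR1, the iron permease, was at 158 and 195 RPKM in 2xDbp1 and at 120 and 127 RPKM in Dbp1, a log2 change of 0.51 with an SE of 0.12 (adjusted p 0.392).

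Ribosome genes had small log2 changes above 0 in most cases. Of 126 cytosolic ribosomal protein genes, 114 had a log2 change above 0 (47% of all genes), with a median of 0.11. Without overlap, 77 were higher (background 18.2%) and 2 lower (background 21.3%). At an unadjusted p under 0.05, 25 were higher (background 3.39%) and 0 were lower (background 4.39%), and none passed after adjustment. RPS11B, a small-subunit protein, was at 1576 and 1592 RPKM in 2xDbp1 and at 1291 and 1279 RPKM in Dbp1, a log2 change of 0.30 with an SE of 0.07. RPL18B, of the large subunit, was at 658 and 619 RPKM against 474 and 338 RPKM, a log2 change of 0.67. Many of these genes have a near-identical paralog, and the split of reads between paralogs is uncertain.

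Ribosome biogenesis genes, which build ribosomes in the nucleolus and nucleus, had 73 of 87 members above 0 with a median of 0.09. Of the 87, 36 were higher without overlap (background 18.2%). UTP15, of the small-subunit processome, was at 111 and 109 RPKM in 2xDbp1 and at 84.5 and 89.5 RPKM in Dbp1 (log2 change 0.33, adjusted p 0.496). Both 2xDbp1 libraries were higher. The median was 0.02 without 2xDbp1 replicate 1 and 0.14 without 2xDbp1 replicate 2. Mitochondrial ribosomal protein genes had 42 of 74 above 0 and a median of 0.01, which ranged from -0.083 to 0.097 with 1 library left out.

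The translation machinery around the helicases differed little. Of 30 initiation factors, 21 were above 0 with a median of 0.05, 8 higher and 5 lower without overlap (backgrounds 18.2% and 21.3%). GCD7, a subunit of the exchange factor eIF2B, was at 131 and 122 RPKM in 2xDbp1 and at 107 and 97.3 RPKM in Dbp1, and EAP1, which binds eIF4E and lowers translation, was at 9.12 and 10.8 RPKM against 12.8 and 12.8 RPKM. Their log2 changes were 0.30 and -0.34. For the 12 tested genes of elongation and termination the median log2 change was -0.04.

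Among 24 other DEAD-box helicase genes the median was 0.02, with 8 higher and 4 lower without overlap (backgrounds 18.2% and 21.3%). DHH1, which promotes decapping and represses translation, was at 41.8 and 45.0 RPKM in 2xDbp1 and at 55.9 and 63.4 RPKM in Dbp1, a log2 change of -0.45 with an SE of 0.10 (adjusted p 0.379). DBP2, a helicase of the nucleus, was at 236 and 223 RPKM against 184 and 178 RPKM, a log2 change of 0.34. Log2 changes over the 24 ran from -0.45 to 0.34. Genes of mRNA decapping and decay had a median of -0.04 over 32 genes.

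The 26S proteasome genes, which encode the main protease for ubiquitin-tagged proteins, had small log2 changes below 0 in all 33 members, none of which passed. The median was -0.14, and 13 were lower without overlap (background 21.3%). RPN2, a scaffold subunit of the regulatory particle, was at 105 and 101 RPKM in 2xDbp1 and at 117 and 133 RPKM in Dbp1, a log2 change of -0.28 (adjusted p 0.611). Most of this difference came with Dbp1 replicate 2, the high library of the list. Without Dbp1 replicate 2 the median was -0.038, with 13 of 33 genes lower without overlap (background 41.9%) and 11 higher. The share of all genes higher in that setting was not taken. Without Dbp1 replicate 1 the median was -0.28, with all 33 lower (background 35.4%). Nitrogen catabolite repressed genes had a median of -0.22 over 18, and purine and one-carbon genes -0.15 over 20. The latter median was -0.28 without Dbp1 replicate 1 and -0.054 without Dbp1 replicate 2. Among the purine and one-carbon genes, the glycine cleavage gene GCV2 was at 14.9 and 15.1 RPKM in 2xDbp1 and at 22.9 and 43.7 RPKM in Dbp1.

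The remaining lists had medians nearer to 0. These were sulfur assimilation and methionine synthesis at -0.06 over 29, glycolysis and fermentation at -0.08 over 22, antioxidant enzymes at -0.03 over 26 and ergosterol synthesis at -0.01 over 24. Cyclins and cell cycle regulators were at 0.01 over 18, and the 10 histone genes were at -0.06 with no member free of overlap. Each of these lists held members of both signs, and with 1 library left out their medians lay between -0.26 and 0.14, both bounds set by the histones.

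**Figure D4:**
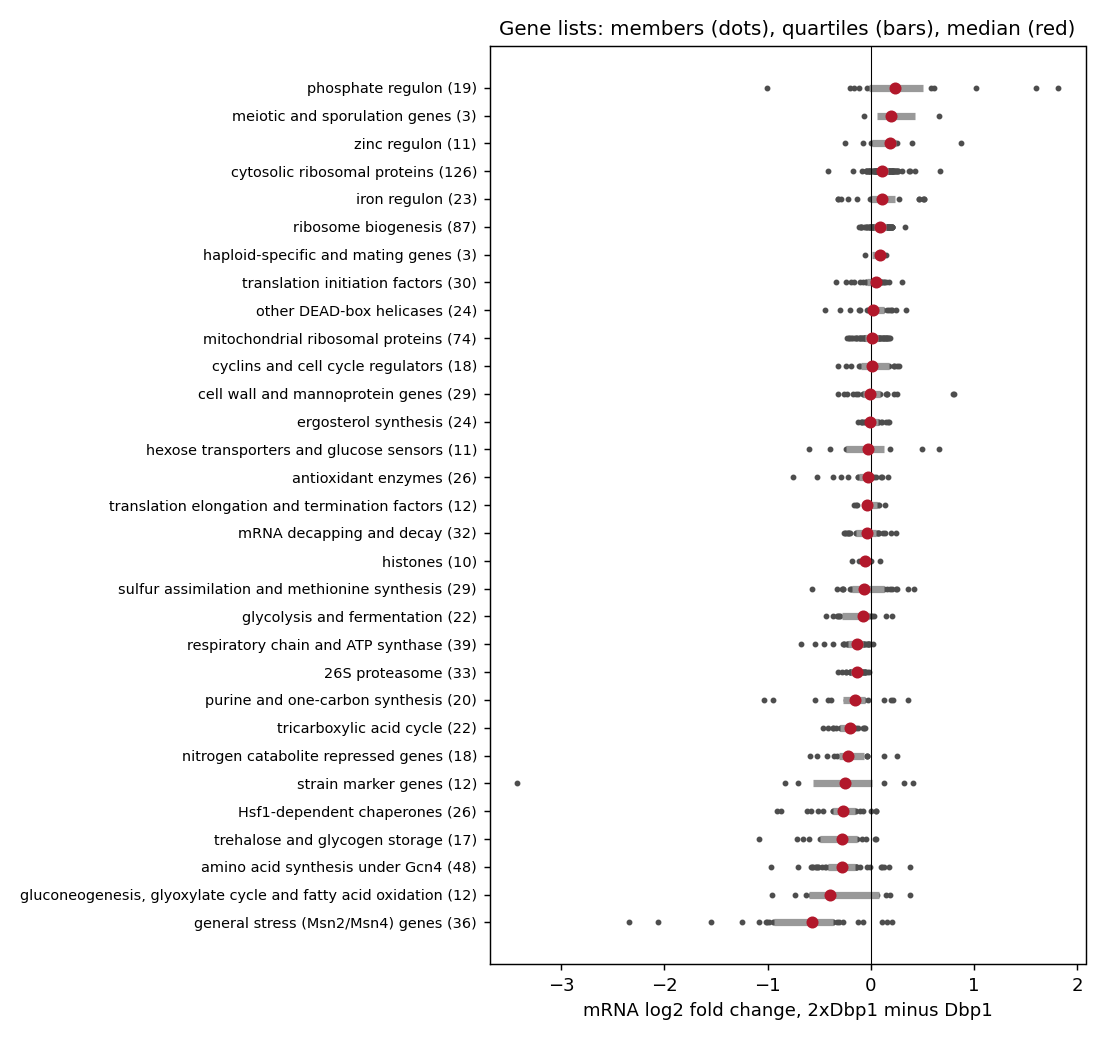
Log2 change of mRNA (2xDbp1 minus Dbp1) of the members of each gene list, with 1 small point per gene tested, a bar over the quartiles, a red point at the median and the number of genes tested in brackets. The general stress list has the lowest median, -0.57, and the phosphate regulon the highest, 0.23.

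Markers of other cell states were low in all libraries. Of 15 meiotic and sporulation genes 3 passed the filter on low values, SPS4, SSP1 and ZIP1, and of 16 haploid-specific and mating genes 3 did, STE2, STE4 and GPA1. SPS4, of sporulation, was at 33.0 and 17.97 RPKM in 2xDbp1 and at 19.5 and 11.6 RPKM in Dbp1, with overlap. STE2, the alpha-factor receptor, was at 5.68 and 6.84 RPKM against 5.13 and 6.60 RPKM, also with overlap.

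Ribosome footprints of the same genotypes gave a second readout, from libraries numbered like the mRNA libraries. Footprint RPKM counts ribosome-protected fragments per kilobase, so it carries both mRNA level and translation. In 4830 genes tested, none passed limma's adjusted threshold (438 genes, 9.07%, had an unadjusted p under 0.05, 223 of them higher, 4.62%, and 215 lower, 4.45%). DBP1 footprints were at 921 and 943 RPKM in 2xDbp1 and at 573 and 571 RPKM in Dbp1, a log2 change of 0.70 with an SE of 0.08 and a 95% interval of 0.51 to 0.90 (adjusted p 0.113). Both 2xDbp1 libraries were higher, by 1.63 times on the group means.

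Over the 4785 genes tested in both readouts, the mRNA and footprint log2 changes had a Pearson r of 0.632 and a Spearman rho of 0.433, as a description across genes whose libraries share a number and perhaps a culture. Of 79 genes at least 0.5 lower in mRNA without overlap, 77 were below 0 in footprints and 63 were lower there without overlap (background 18.2%). Of 24 genes at least 0.5 higher, 20 were above 0 and 14 were higher without overlap (background 24%). These backgrounds are over all genes tested in footprints, not over genes chosen for an mRNA difference. Same-numbered mRNA and footprint libraries had deviations correlated at 0.66 in Dbp1 and 0.42 in 2xDbp1 across genes. Genes chosen on mRNA can thus carry the deviation of a library into footprints, so the agreement is not an independent check. The footprint differences largest in size were those of DDR2, at -2.46, and HSP12, both on the stress list. In mRNA a single Dbp1 library carried nearly the whole DDR2 difference, and the DDR2 footprints are not given by library here.

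HSP12 footprints were at 71.8 and 70.2 RPKM in 2xDbp1 and at 538 and 256 RPKM in Dbp1, a footprint log2 change of -2.37. RTN2 footprints were at 10.4 and 9.36 RPKM against 42.9 and 23.0 RPKM, a footprint log2 change of -1.58 beside -1.02 in mRNA. In both genes every 2xDbp1 library was below every Dbp1 library. MSC1 and CTT1 were also lower by more in footprints than in mRNA, at -1.39 and -1.73 beside -0.94 and -0.76, and the difference between the readouts was not tested. NNR2, GAD1 and HSP78 had footprint log2 changes of -0.66, -0.68 and -0.71, a little smaller than in mRNA.

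Among the lists, the general stress genes had a footprint median of -0.68, with 25 of 31 lower without overlap (background 18.2%). The chaperones had -0.13, with 5 of 25 lower without overlap, near the background of 18.2%. Ribosome biogenesis genes had a footprint median of 0.18, with 68 of 87 higher without overlap (background 24%) and 0 lower (background 18.2%). Cytosolic ribosomal protein genes had 0.03, with 42 of 124 higher (background 24%) and 8 lower (background 18.2%) without overlap. AQY2, at 1.05 in footprints beside 1.09 in mRNA, and COS8, at 0.82 beside 1.17, lay on the higher side in both readouts.

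**Figure D5:**
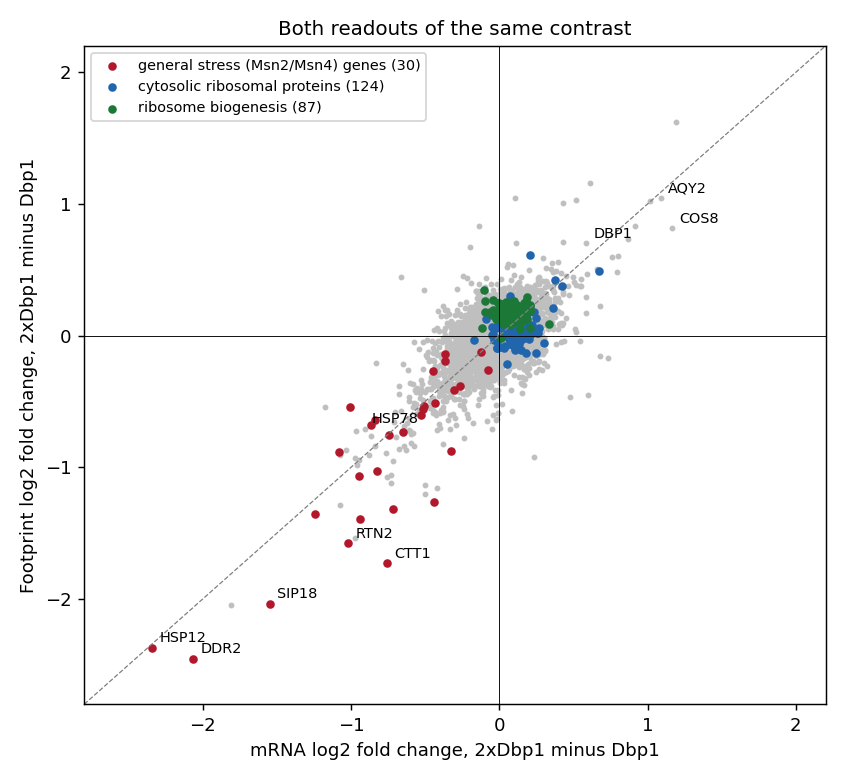
Footprint log2 change against mRNA log2 change, both 2xDbp1 minus Dbp1, for the 4785 genes tested in both, 1 point per gene, with the stress, ribosomal protein and ribosome biogenesis genes in colour and a dashed line where both are equal. The points of HSP12 (-2.34 in mRNA and -2.37 in footprints) and DBP1 (0.59 and 0.70) lie away from the main cloud, and r across genes is 0.632.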

How the data were processed

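The deposited table gives each of 6159 gene IDs 1 RPKM value per library. The labels name no unit, and RPKM was inferred: after multiplication by gene length less 60 nt, the authors' low values fell on whole multiples of a library-specific step. Among those worth at most 200 reads, 83.9% to 87.8% were whole (tolerance 0.02 reads), and these steps gave the depths. Fragments of 28 to 31 nt (footprints) and 50 nt (mRNA) were size-selected, per the labels' protocols. CASAVA, bcl2fastq 2.17 and Bowtie2 are listed per the submitters' processing notes, and the sources used here do not give the build, the annotation or how reads were counted. Names and neighbours came from the R64 gene table (5637 IDs matched, 522 did not).

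For mRNA and for footprints separately, limma 3.58.1 in R 4.3.3 was run with a trended prior on log2(RPKM + 1) of all 6 libraries, so that the 3 genotypes share 1 spread. The filter was a mean of 5 RPKM or more, and the call an adjusted p under 0.05 (Benjamini-Hochberg over all genes tested, 2-sided). A fold change on this scale understates the change of low genes. The procedure was tested on simulated data. Tables and plots used Python 3.11.15, pandas 2.3.3, numpy 2.4.6 and matplotlib 3.10.9.

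The rule for named genes took DBP1, DED1, called genes without overlap whose mean reached 10 RPKM, then the lowest p-values with a log2 change of at least 0.5 in size up to 8 per direction, and from each list up to 4 called members or else 2 by lowest p. Other genes were chosen after their values were seen. The members and lists were chosen with earlier results of these data known. List names ARG5,6, DUR1,2 and ADE5,7 were unmatched, and 11 of 137 ribosomal protein genes were not among the IDs used here. Alternatives changed the filter, pseudocount, scaling, prior, samples, replicate block and libraries left out. A result of 1 further gene taken by the rule is not reported here.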

Additional observations from a re-analysis of the deposited data

How the results depend on the processing

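TRP1 passed under all 15 alternatives run on mRNA. The number of genes called in mRNA was 2 with a pseudocount of 5, where YDR008C, which passed the filter only through the 2xDbp1 libraries, joined TRP1, and 1 to 6 when 1 library was left out, with 6 without Dbp1 replicate 1. With the replicate block it was 4, where AQY2 (1.09) and HSP78 (-0.91) passed at an adjusted p of 0.0253. Same-numbered 2xDbp1 and Dbp1 mRNA libraries had deviations correlated at -0.11 across genes, against 0.33 for 2xDbp1 with Ded1 and 0.17 for Dbp1 with Ded1, and with 2 numbers the pairing was not established. A crossed replicate block, chosen after seeing the data, gave 2. In footprints 1 gene, FMP45 (YDL222C), was called with the 2 compared genotypes alone, and 0 to 1 when 1 library was left out. The change of DBP1 ran from 0.56 to 0.62 and did not pass under any alternative. Signs changed with 1 library left out for SSP1 (-0.32 to 0.70), STE2 (-0.071 to 0.24), HTA1 (-0.58 to 0.22) and HTB1 (-0.35 to 0.12). Of 70 named genes 66 kept their sign under every alternative, and of 31 list medians 17 did. The cause was not tested. Depth limits low genes, since 5 RPKM in a gene of 1 kb rests on 30.0 to 42.5 reads.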
